A study of Homo sapiens with 9 samples.

Results

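The genes examined here are the 9 that encode the machinery of store-operated calcium entry and the inositol trisphosphate (IP3) receptors: the sensors STIM1 and STIM2, the channel subunits ORAI1, ORAI2 and ORAI3, the receptors ITPR1, ITPR2 and ITPR3, and the regulator SARAF. They were chosen by name, as genes whose products are known targets of SKF-96365 and 2-APB or work directly with them. All 9 were found among the 61093 genes listed, and all 9 passed the filter on low values that left 17492 genes for testing. RNA was sequenced from cells labelled HepG2, a human hepatocellular line, in 3 groups of 3 libraries. They are cells given 2-APB, which the series text calls an agonist of the cation channel TRPV2, cells given SKF-96365, which it calls an inhibitor, and control cells with no treatment given. The labels name no dose, exposure time or vehicle, and give no word on whether the 3 libraries per condition are from separate cultures, so p-values measure only the spread between these libraries. The 2-APB libraries were grouped by their treatment label, since their titles read ABP and their descriptions TRPV2.

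Calcium stored in the endoplasmic reticulum leaves it through IP3 receptors when a receptor at the cell surface activates phospholipase C. STIM proteins sense the fall of calcium inside the store, gather where the reticulum meets the plasma membrane and open ORAI channels there, through which calcium enters and the store is refilled. SARAF, a protein of the reticulum membrane, turns this entry off slowly. SKF-96365 is known to block store-operated and related calcium entry, while 2-APB acts on IP3 receptors, blocks or potentiates ORAI1 depending on its concentration and can open ORAI3. These are actions on proteins, and the measurements below are of transcripts.

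The libraries with recovered read totals held 14786059 to 19026545 reads. Of the 9 libraries, 5 were closest to a library of their own group and 4 were not: control 3 was closest to SKF-96365 2, SKF-96365 1 was closest to 2-APB 3, and 2-APB 3 was closest to SKF-96365 1, and control 1 to 2-APB 3, by Pearson r over all tested genes. 2-APB 1 and 2-APB 2 were much closer to each other than other libraries of a group, with a chi-square of 2.15 per degree of freedom on their reads, against 18 to 62.1 for the other pairs of a group that could be compared. Defining hepatocyte transcripts were nearly absent from cells labelled HepG2: of 10 listed, only SERPINA1 passed the filter, and albumin (ALB) had a mean of 4.24 normalized counts. Markers of epithelial and mesenchymal cells were mixed, with high means of KRT8 (79421) and VIM (31329). EPCAM (6.32) and CDH1 (42.4), both epithelial, and COL1A2 (13.7) and COL1A1 (174), both mesenchymal, were low. Of 5 lymphoid and myeloid markers, 1 passed the filter, CD14 at a mean of 51.6, and T-cell CD3E was at 0 in every library. The summed level of 10 proliferation genes (MCM2 to MCM7, PCNA, CDC6, UHRF1 and CCNE2) was 15615 in SKF-96365 2, 16455 in SKF-96365 3 and 16274 in control 3, and 25275 to 36974 in the other 6 libraries. In bulk RNA, fewer cells of a kind and less RNA per cell cannot be told apart.

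No gene of the 9 differed between groups by the test used. By limma on log2 of the normalized count plus 1, with Benjamini-Hochberg adjustment over the 17492 genes, 0 of 9 were called with 2-APB against control, 0 of 9 with SKF-96365 against control and 0 of 9 with 2-APB against SKF-96365, where the share of all tested genes called was 0% in each. At an unadjusted p under 0.05, ITPR3 alone passed with 2-APB against control (background 2.8% of genes) and with 2-APB against SKF-96365 (7.3%), and none passed with SKF-96365 against control (4%). The pass of ITPR3 with 2-APB against control was lost with total rescaling, in a fit of those 2 groups alone, with edgeR and DESeq2, and without 2-APB 1, 2-APB 2, control 2 or control 3. On the 8 libraries with recovered reads, edgeR and DESeq2 also called 0 of the 9 in each comparison. Without adjustment both passed ITPR3 for 2-APB against SKF-96365 and none of the 9 in the other comparisons. The largest separations were a lower level of ITPR3 with 2-APB, a lower level of STIM1 with 2-APB, a lower level of STIM2 with SKF-96365 and a wide spread of ORAI3 that ran across the labels.

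**Figure D1:**
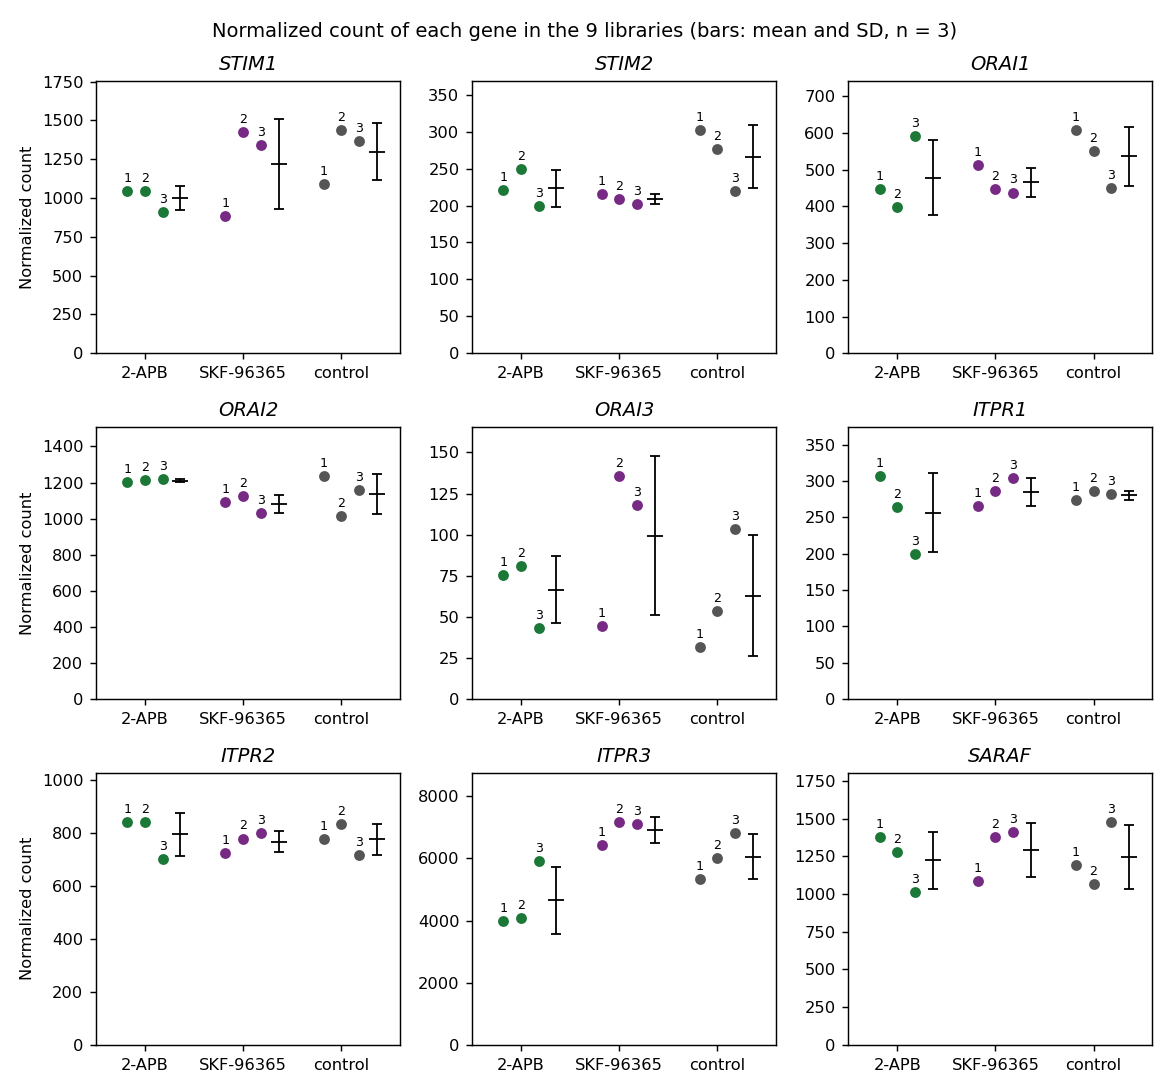
Normalized count of each gene (y axis, from 0) by group (x axis), with 1 point per library labelled by its number and a bar at the mean ± SD (n = 3) to the right. ITPR3 is at 4001 and 4069 in 2-APB 1 and 2-APB 2, below the other 7 libraries, and ORAI3 is above 100 only in SKF-96365 2, SKF-96365 3 and control 3.

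The genes differed widely in level, which sets what each can show. Levels between genes are compared as normalized counts per kilobase of the longest annotated protein-coding transcript, averaged over the 9 libraries. ITPR3 (595 ± 122) and SARAF (582 ± 79.3; SD, n = 9) came first, and ITPR3 was the higher of the pair in 6 of 9 libraries. ORAI1 (329 ± 50.2) and STIM1 (269 ± 50.7) followed, with ORAI1 higher in 6 of 9 libraries. ORAI2 (106 ± 7.64) and ITPR2 (68.4 ± 4.78) each stood apart from the next gene in all 9 libraries. STIM2 (45.1 ± 6.96), ORAI3 (34.6 ± 16.5) and ITPR1 (26.9 ± 3.12) were lowest, and each neighbouring pair kept its order in 6 of 9 libraries. The order within each of these neighbouring pairs is therefore within the spread of libraries, while STIM2 was above ITPR1 in all 9. With the union of all annotated exons as the length, an alternative chosen after seeing the data, the order of the means was the same, ORAI3 was above ITPR1 in all 9 libraries, and ITPR1, whose annotated exons add up to 32454 bases against 10197 in its longest coding transcript, was at 8.44 per kilobase.

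**Figure D2:**
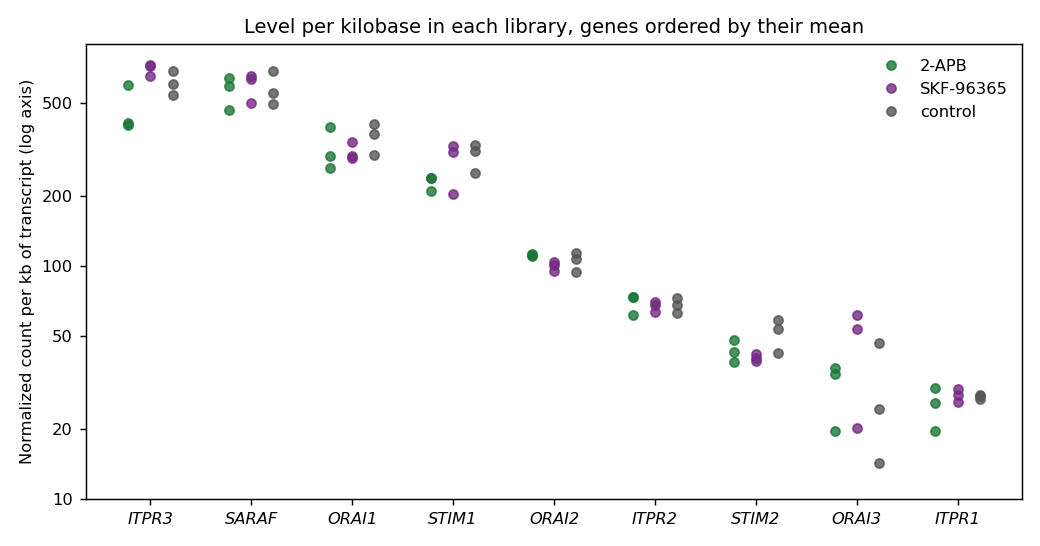
Normalized count per kilobase of the longest coding transcript (y axis, log scale) for each gene, ordered by its mean, with 1 point per library and colours for the groups. Points of ITPR3 and SARAF overlap near the top, and those of ORAI3 run from 14.3 to 61.5, the widest relative range of the 9.

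Per kilobase of annotated length, 1 gene made up most of each family. On the same scale per kilobase, ITPR3 made up 79.6% to 88.4% of the IP3 receptor transcripts over the 9 libraries, with ITPR2 at 8.07% to 14.5% and ITPR1 at 2.88% to 5.91%. ORAI1 made up 64.1% to 75.9% of the ORAI transcripts, ORAI2 19.3% to 27.1% and ORAI3 2.68% to 13.3%. STIM2 supplied 11.01% to 19.0% of the STIM transcripts and STIM1 the remainder. A share does not depend on how libraries were scaled, but it depends on the length used: with the union of exons, ITPR1 made up 0.931% to 1.97% and ITPR3 84.3% to 91.4% of the IP3 receptor transcripts. ORAI1 then made up 55.7% to 68.5% and ORAI2 25.8% to 34.6% of the ORAI transcripts. Before division by length, the normalized count of ORAI2 (mean 1143) was above that of ORAI1 (493). The order of this pair thus rests on the length of 10811 bases used for ORAI2. The union of its exons, 11103 bases, is nearly the same and does not test a shorter transcript. The share of ITPR3 was 79.6%, 80.5% and 88.1% in 2-APB 1 to 3, against 87.9%, 88.3% and 87.9% in SKF-96365 1 to 3 and 85.1%, 85.7% and 88.4% in control 1 to 3. The first pair of 2-APB libraries was thus below all others, and 2-APB 3 was not. The share of ORAI3 was 7.73%, 8.84% and 3.73% in 2-APB 1 to 3, 4.36%, 13.3% and 12.1% in SKF-96365 1 to 3 and 2.68%, 5.01% and 10.3% in control 1 to 3, so that all 3 groups overlapped. The share of STIM2 averaged 15.9% ± 0.80 with 2-APB, 13.1% ± 3.44 with SKF-96365 and 14.97% ± 3.61 in control (SD, n = 3), differences smaller than the spread within SKF-96365 and control.

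**Figure D3:**
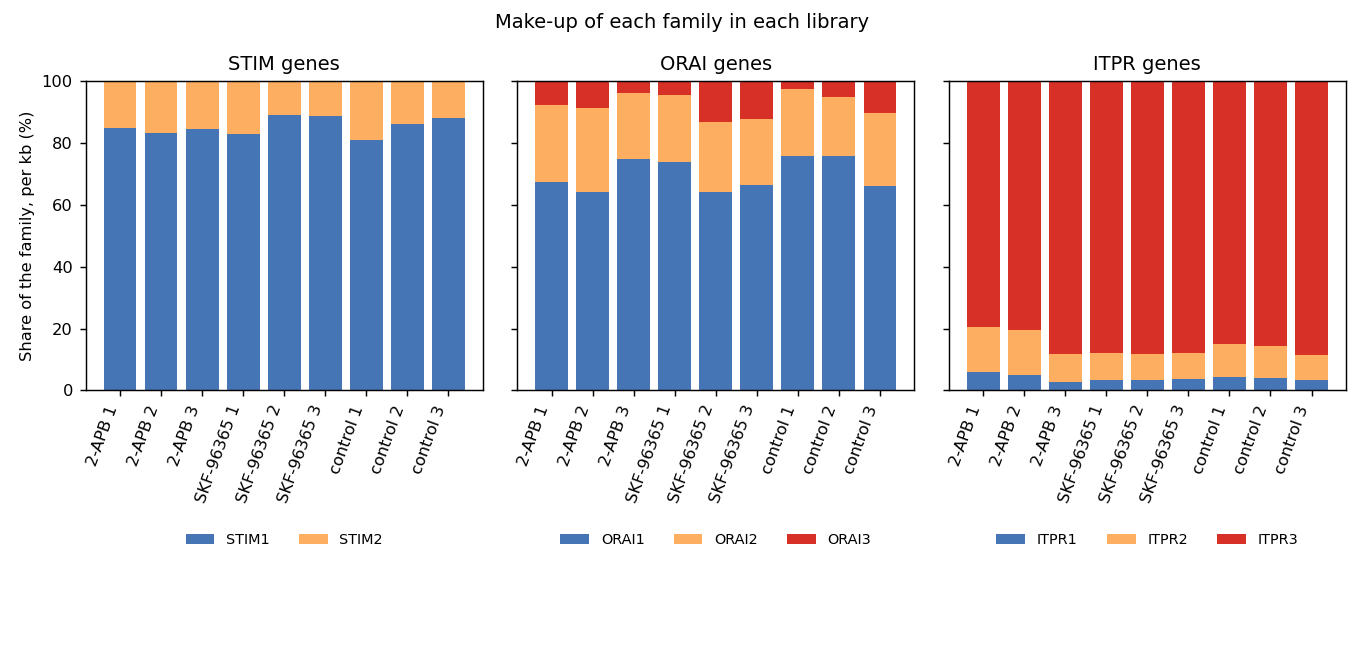
Share of each gene in its family in percent (y axis, per kilobase of transcript) in each library (x axis), for the STIM, ORAI and ITPR families. ITPR3 fills 79.6% or more of every ITPR bar, and ORAI3 exceeds 10% in SKF-96365 2, SKF-96365 3 and control 3.

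STIM1, the main sensor of store calcium, was measured at 1042.5, 1046 and 912 normalized counts in 2-APB 1 to 3, at 885, 1426 and 1340 in SKF-96365 1 to 3, and at 1091, 1437 and 1366 in control 1 to 3. The 2-APB libraries were all below the control libraries by a small gap to control 1, and SKF-96365 spanned both. With 2-APB the log2 fold change was -0.37 (SE 0.19, 95% interval -0.78 to 0.04, limma adjusted p = 0.9995), with 3 of 3 libraries under every control. An exact two-sided permutation test gave p = 0.1, the smallest that 3 against 3 libraries allow, and 0.675 after Benjamini-Hochberg adjustment over 27 such tests. STIM1 was 1 of 9 genes whose 2-APB and control groups did not overlap, beside 7.57% of all tested genes (3.61% higher and 3.97% lower with 2-APB). With SKF-96365 the log2 fold change was -0.11 (SE 0.19, limma adjusted p = 0.859), and it was 0.10 without SKF-96365 1 and 0.14 without both SKF-96365 1 and control 3.

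STIM2, a sensor that responds to smaller falls of store calcium, stood at 221, 249 and 199 in 2-APB 1 to 3, at 216, 209 and 201 in SKF-96365 1 to 3, and at 302, 277 and 219 in control 1 to 3. The SKF-96365 libraries were all below the control libraries, but SKF-96365 1 and control 3 were only a few counts apart. Counting error is larger than that gap: the exact Poisson 95% intervals were 190 to 244 for SKF-96365 1 and 191 to 251 for control 3, and they cover counting error only. The log2 fold change with SKF-96365 was -0.34 (SE 0.16, 95% interval -0.70 to 0.02, limma adjusted p = 0.789), and exact p = 0.1 (0.675 adjusted). It was -0.47 without control 3 and -0.24 without control 1. STIM2 was the 1 gene of 9 whose SKF-96365 and control groups did not overlap, beside 6.2% of all tested genes (3.26% higher and 2.94% lower with SKF-96365). With 2-APB it was -0.25 (SE 0.16, limma adjusted p = 0.9995), and 2 of the 3 libraries lay above control 3, so that the groups overlapped.

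SARAF, the brake on store-operated entry, was at 1380, 1280 and 1014 in 2-APB 1 to 3, at 1085, 1377 and 1413 in SKF-96365 1 to 3, and at 1190, 1066 and 1479 in control 1 to 3. Each group held both high and low libraries. Its log2 fold changes were -0.02 (SE 0.17, 95% interval -0.40 to 0.35) with 2-APB and 0.06 (SE 0.17, 95% interval -0.32 to 0.43) with SKF-96365, at limma adjusted p of 0.9995 and 0.926. The sign is not settled for either compound. With 2-APB it was 0.11 without 2-APB 3 or without control 3, and with SKF-96365 it was -0.05 without control 2.

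ORAI1, the pore subunit of the classical calcium release-activated channel, was at 446, 397 and 592 in 2-APB 1 to 3, at 511, 446 and 437 in SKF-96365 1 to 3, and at 607, 551 and 449 in control 1 to 3. Control 3 lay with SKF-96365 2 and SKF-96365 3, and 2-APB 3 with control 1. The log2 fold changes were -0.17 (SE 0.18) with 2-APB and -0.20 (SE 0.18) with SKF-96365, at limma adjusted p of 0.9995 and 0.792. They ran from -0.34 to -0.05 and from -0.32 to -0.10 as single libraries were left out.

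ORAI2, a subunit that can join ORAI1 in a channel and lower its activity, was at 1200, 1212 and 1220 in 2-APB 1 to 3, at 1092, 1127 and 1030 in SKF-96365 1 to 3, and at 1236, 1016 and 1158 in control 1 to 3. It was 1 of the 2 steadiest genes, with a coefficient of variation of 7.23% over the 9 libraries where reads alone would give about 2.92%. The 2-APB libraries were all above the SKF-96365 libraries, and the control libraries spanned both. The log2 fold change of 2-APB against SKF-96365 was 0.16 (SE 0.11, 95% interval -0.08 to 0.40, limma adjusted p = 0.711). In that comparison ORAI2 and ITPR3 were 2 of 9 genes without overlap, beside 17% of all tested genes (8.21% higher and 8.79% lower with 2-APB). Part of the exons of ORAI2, 584 bases, overlaps ALKBH4 on the opposite strand, whose mean was 123, and since no strand setting is given their reads cannot be told apart.

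ORAI3, a subunit whose channels 2-APB can open directly, was the most variable of the 9. It was at 75.6, 80.7 and 43.4 in 2-APB 1 to 3, at 44.5, 136 and 118 in SKF-96365 1 to 3, and at 31.6, 53.8 and 103 in control 1 to 3. The highest library was 4.30 times the lowest, and the coefficient of variation over the 9 was 47.8%, against about 11.8% expected from 30 to 132 reads per library alone. The 3 highest libraries were SKF-96365 2, SKF-96365 3 and control 3, which are also the 3 with the lowest summed level of the proliferation genes (15615 to 16455, against 25275 to 36974 elsewhere). They also had the highest summed level of 8 mesenchymal markers (78692 to 85979, against 63419 to 74555 elsewhere) and the lowest of 5 epithelial markers (110780 to 115720, against 124370 to 149410). The epithelial sum is mostly KRT8 and KRT18 (means 79421 and 41837). The mean log2 deviation of the epithelial markers did not follow it. That mean was highest in control 3 (0.62) and lowest in control 1 (-0.33). Values for SKF-96365 2 (0.03) and SKF-96365 3 (-0.09) lay between these. The part of the differences in marker and proliferation sums in the ORAI3 level was not tested. ORAI3 had a log2 fold change of 0.66 with SKF-96365 (SE 0.50, 95% interval -0.44 to 1.77, limma adjusted p = 0.789) and of 0.19 with 2-APB (SE 0.50, 95% interval -0.92 to 1.30, limma adjusted p = 0.9995), the widest intervals of the 9. With SKF-96365 it was 0.26 without control 1, 0.37 without SKF-96365 2, 1.10 without control 3 and 1.16 without SKF-96365 1. Without both control 3 and SKF-96365 1 it was 1.59 and called by limma (adjusted p = 0.0107), as were 27.6% of all tested genes, but those libraries were left out because they stood with another group, which makes that p optimistic. With 2-APB it was -0.21 without control 1 and 0.63 without control 3. ORAI3 shares 1397 exon bases with AC135048.1 on the same strand, a gene at 0 in every library. How reads in shared exons were counted is not given. The level and share of ORAI3 may be understated for that reason, which was not tested.

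ITPR3, the most abundant IP3 receptor here and in many epithelial cells, was at 4001, 4069 and 5904 in 2-APB 1 to 3, at 6443, 7183 and 7123 in SKF-96365 1 to 3, and at 5353, 6002 and 6805 in control 1 to 3. 2-APB 1 and 2-APB 2 were below every other library, 2-APB 3 lay among the controls, and SKF-96365 2 and SKF-96365 3 were above all of them. Counting error was small, about 1.31% for a library of average depth, against a coefficient of variation of 20.4% over the 9. ITPR3 averaged 4658 ± 1080 with 2-APB, 6916 ± 411 with SKF-96365 and 6053 ± 727 in control (SD, n = 3). The log2 fold change with 2-APB against control was -0.40 (SE 0.16, 95% interval -0.75 to -0.04, limma unadjusted p = 0.034, adjusted p = 0.9995), lower than the lowest control in 2 of 3 libraries, and an exact two-sided permutation test gave p = 0.2 (0.771 adjusted). Against SKF-96365 it was -0.59 (SE 0.16, 95% interval -0.95 to -0.23, limma unadjusted p = 0.00415, adjusted p = 0.684), lower in 3 of 3 libraries, with exact p = 0.1 (0.675 adjusted). The value against control was -0.58 without 2-APB 3 and -0.30 without 2-APB 1, and 2-APB 1 and 2-APB 2 are the close pair of libraries described above. With SKF-96365 against control it was 0.20 (SE 0.16, limma adjusted p = 0.789). ITPR3 shares 1025 exon bases with UQCC2 on the opposite strand, whose mean of 337 is small beside that of ITPR3.

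ITPR2, the receptor with the highest affinity for IP3, was the steadiest gene, at 840, 843 and 702 in 2-APB 1 to 3, at 725, 779 and 799 in SKF-96365 1 to 3, and at 777, 835 and 718 in control 1 to 3. Its log2 fold changes were 0.03 (SE 0.12, 95% interval -0.24 to 0.30) with 2-APB and -0.02 (SE 0.12, 95% interval -0.28 to 0.25) with SKF-96365, at limma adjusted p of 0.9995 and 0.974. Neither interval reaches beyond 0.30 from 0. ITPR1, the receptor best known from neurons, was at 307, 264 and 199 in 2-APB 1 to 3, at 266, 286 and 304 in SKF-96365 1 to 3, and at 274, 286 and 282 in control 1 to 3. The 2-APB libraries spread around the tight control values, and 2-APB 3 was the lowest of the 9. Its log2 fold changes were -0.15 (SE 0.17) with 2-APB and 0.02 (SE 0.17) with SKF-96365, at limma adjusted p of 0.9995 and 0.974, and with 2-APB it was 0.02 without 2-APB 3.

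**Figure D4:**
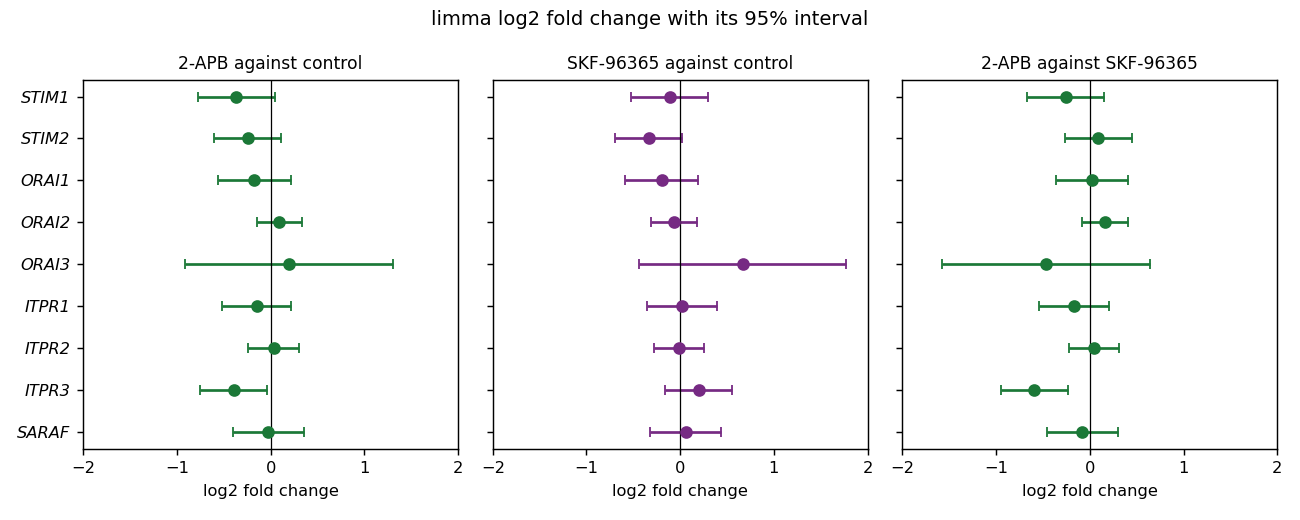
limma log2 fold change of each gene (x axis) with its 95% interval, for 2-APB against control, SKF-96365 against control and 2-APB against SKF-96365. All intervals span 0 but those of ITPR3 with 2-APB, at -0.40 and -0.59, and neither passed adjustment over all genes tested.

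Both compounds were compared with the same 3 control libraries, so their values are given side by side and not correlated. With 2-APB 6 of the 9 genes were negative, with a median log2 fold change of -0.15, where all tested genes had a median of -0.0016. With SKF-96365 5 of 9 were negative with a median of -0.015, where all tested genes had -0.0043. STIM1, STIM2 and ORAI1 were negative with both compounds, at -0.37, -0.25 and -0.17 with 2-APB and -0.11, -0.34 and -0.20 with SKF-96365. The other genes but ORAI3, 5 of the 9, differed in sign between the compounds: ORAI2 (0.10 with 2-APB and -0.07 with SKF-96365), ITPR1 (-0.15 and 0.02), ITPR2 (0.03 and -0.02), ITPR3 (-0.40 and 0.20) and SARAF (-0.02 and 0.06). Apart from those of ITPR3, each of these values was smaller than its SE, so they do not show opposite responses. That SE was 0.11 for ORAI2, 0.17 for ITPR1, 0.12 for ITPR2 and 0.17 for SARAF. The compounds act on overlapping targets but are not analogues of each other, and whether their doses were matched is not given. By the F test over the 3 groups 0 of 9 genes were called by limma (0% of all tested genes) and 1 of 9, ITPR3, passed without adjustment (unadjusted p = 0.0122, adjusted p = 0.862), beside 4.02% of all tested genes.

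**Figure D5:**
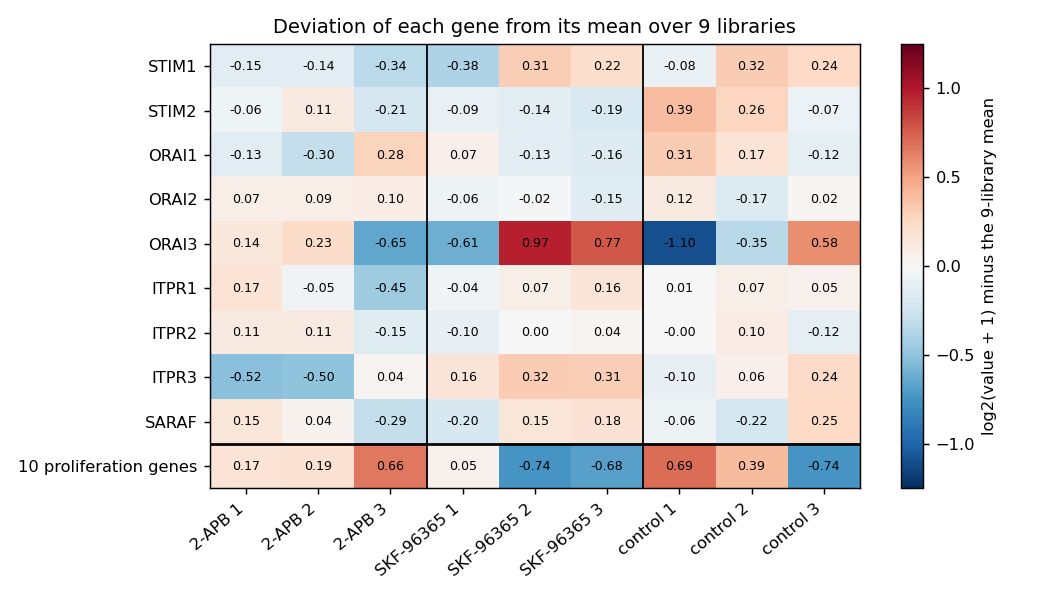
Deviation of log2(value + 1) of each gene from its mean over the 9 libraries (colour and number in each cell), with the mean deviation of 10 proliferation genes in the bottom row. ORAI3 is at 0.97, 0.77 and 0.58 in SKF-96365 2, SKF-96365 3 and control 3, where the proliferation row is at -0.74, -0.68 and -0.74.

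Deviations from each gene's own mean show how the genes moved across libraries regardless of label. STIM1 was high in SKF-96365 2, SKF-96365 3, control 2 and control 3, at 0.22 to 0.32 above its mean on the log2 scale, and ORAI1 was low in 3 of those 4. SARAF was high in SKF-96365 2, SKF-96365 3 and control 3 (0.15 to 0.25), as ORAI3 was, and also in 2-APB 1 at 0.15. In 2-APB 3, 6 of the 9 genes were below their means, ORAI3 at -0.65 and ITPR1 at -0.45 furthest, while ORAI1 was 0.28 above. Among the 12381 genes with a mean of at least 50, the nearest pattern was sought as the smallest mean absolute difference of such deviations over the 9 libraries, which share their size factors and the split described above. For ORAI3, whose own deviations averaged 0.60, the nearest genes were HSPG2 (0.117), the basement membrane proteoglycan perlecan, HBP1 (0.118), a transcriptional repressor, and SMIM14 (0.119). For ITPR3, with deviations averaging 0.25, they were the locus ENSG00000279495 (0.072), the AP-1 gene FOSL2 (0.084) and RUSC2 (0.090). For STIM1, averaging 0.24, they were PIP4P1 (0.059), RETREG2 (0.060) and ITPRIPL2 (0.064). The other 6 genes deviated by 0.082 to 0.19 on average and had nearest genes at 0.019 to 0.065, among them PELP1 for ORAI1, ABHD8 for ORAI2, CLPTM1L for STIM2, SC5D for ITPR1, C22orf39 for ITPR2 and PEX5 for SARAF.

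Upstream sequence is shown for the genes with the widest spread (ORAI3), the smallest p (ITPR3) and groups without overlap under SKF-96365 (STIM2), each as the 250 bases before its annotated start, from RefSeq on GRCh38.p14. RefSeq promoters matched 6 of the 9 genes. Capitals mark matches to the GC box GGGCGG and the CCAAT box on either strand.
ORAI3, chr16:30948818-30949067, plus strand: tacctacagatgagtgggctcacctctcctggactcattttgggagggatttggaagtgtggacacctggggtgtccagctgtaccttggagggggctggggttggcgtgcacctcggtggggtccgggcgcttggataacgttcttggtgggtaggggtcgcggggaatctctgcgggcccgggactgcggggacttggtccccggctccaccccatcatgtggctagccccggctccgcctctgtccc
ITPR3, chr6:33621072-33621321, plus strand: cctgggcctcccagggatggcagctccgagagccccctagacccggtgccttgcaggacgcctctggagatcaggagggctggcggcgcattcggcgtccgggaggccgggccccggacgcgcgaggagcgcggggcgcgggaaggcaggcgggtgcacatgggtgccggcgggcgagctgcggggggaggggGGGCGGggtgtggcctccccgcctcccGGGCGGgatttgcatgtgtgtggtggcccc
STIM2, chr4:26860591-26860840, plus strand: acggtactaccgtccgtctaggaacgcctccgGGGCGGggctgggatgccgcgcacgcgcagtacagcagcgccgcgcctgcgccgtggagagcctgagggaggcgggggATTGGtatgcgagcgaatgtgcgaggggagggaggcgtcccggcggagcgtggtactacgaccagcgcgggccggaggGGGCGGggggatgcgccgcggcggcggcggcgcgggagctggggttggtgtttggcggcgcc
A search on both strands for the TATA box TATAAA, the CCAAT box CCAAT, the GC box GGGCGG, the E-box CACGTG, the AP-1 site TGACTCA and the cyclic AMP element TGACGTCA found 0 of the 6 motifs in the ORAI3 window. The ITPR3 window held 2 GC boxes, 57 and 30 bases before the start, and the STIM2 window held 2 GC boxes and 1 CCAAT box. Of all 35116 promoter windows of this length, 42.6% held a GC box, 32.0% a CCAAT box, 10.7% a TATA box, 6.34% an E-box, 4.2% the AP-1 site and 1.65% the cyclic AMP element. GC content was 64.8% for ORAI3, 76.8% for ITPR3 and 75.2% for STIM2, against a median of 58.0% over all windows. A match describes the letters only, and a window without one says nothing of what binds there.

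Around these 9 genes, 4 lists of pathway genes were examined, and no list member was called in any comparison by limma. Of 18 partners of store-operated entry and of contacts between the reticulum and plasma membrane, 17 were tested, with 0 of 17 at an unadjusted p under 0.05 in each comparison. Their median log2 fold change was 0.0090 with 2-APB and -0.011 with SKF-96365. The highest were CAV1, the caveolar scaffold, at 27103 ± 5701 with 2-APB, 24972 ± 3319 with SKF-96365 and 26260 ± 2738 in control (SD, n = 3), the cargo receptor SURF4 with a mean of 4651 over the 9 libraries, and ESYT2, a lipid-transferring tether of the contact sites, with 3579. Their log2 fold changes were 0.03, 0.01 and 0.01 with 2-APB and -0.08, 0.03 and 0.20 with SKF-96365.

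Genes that form or remove IP3 numbered 21 tested of 23, and 0 of 21 passed at an unadjusted p under 0.05 in each comparison. Medians were 0.059 with 2-APB and 0.085 with SKF-96365. The phospholipase C genes PLCB4, PLCD3 and PLCB2, whose products cut a membrane lipid to release IP3, were highest. PLCB4 averaged 3280 ± 456 with 2-APB, 3522 ± 804 with SKF-96365 and 3806 ± 706 in control (SD, n = 3), a log2 fold change of -0.21 (SE 0.20) with 2-APB and -0.12 (SE 0.20) with SKF-96365. PLCD3 and PLCB2 had means of 2427 and 2273 over the 9 libraries, with fold changes of 0.10 and 0.11 with 2-APB and 0.12 and 0.12 with SKF-96365 on the log2 scale.

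Of 26 partners of the IP3 receptors and genes of their turnover, 21 were tested and 0 were called. The highest were TMBIM6, a calcium leak protein of the reticulum, with a mean of 14834, the chaperone gene HSPA9 with 10724 and the mitochondrial pore gene VDAC1 with 5703, and their log2 fold changes were within 0.10 of 0 in both comparisons with control. Without adjustment, ERLIN1 (log2 fold change -0.27, unadjusted p = 0.0458), part of the complex that marks active IP3 receptors for destruction, and BCL2L1 (-0.37, unadjusted p = 0.0279), whose product binds IP3 receptors, were lower with 2-APB, which makes 2 of 21 beside 2.8% of all genes, both at a limma adjusted p of 0.9995. RNF170, the ubiquitin ligase of the same complex, had 0.55 with SKF-96365 (unadjusted p = 0.0279, limma adjusted p = 0.789), 1 of 21 beside 4% of all genes. These were named after their values were seen. Of 9 other release and leak channels of intracellular stores, 8 were tested and 0 of 8 passed without adjustment. The lysosomal channel gene TPCN1 averaged 1309 ± 99.9 with 2-APB, 2004 ± 525 with SKF-96365 and 1521 ± 684 in control (SD, n = 3). TMCO1, a calcium leak channel of the reticulum, had a mean of 1505 over the 9 libraries, with log2 fold changes of 0.03 with 2-APB and -0.10 with SKF-96365. Of the ryanodine receptor genes, RYR3 (mean 40.4) and RYR2 (mean 9.20) passed the filter at low levels, and RYR1, at a mean of 4.89, did not.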

How the data were processed

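RNA from 9 samples was sequenced after SMARTer mRNA-Seq library preparation, per the labels. The deposited values are a normalized signal: gene counts divided by 1 DESeq2 size factor per library, per the submitters' processing notes, which give no version. The sources used here do not give the aligner or counting tool. Build, annotation and strandedness are likewise not given in the sources used here. Of 61093 genes, 60463 were matched to a symbol by Ensembl identifier and 130 more through GENCODE 29. In each library 100% of the deposited signal values were whole multiples, within 0.001, of the smallest value above 0, and whole reads were recovered for 8. SKF-96365 3, whose step of 0.992 was the nearest to 1 of all libraries, was not among them and was left out of count models. Those models thus rested on SKF-96365 1 and SKF-96365 2 for that group. The reads of this pair had a chi-square of 53.8 per degree of freedom.

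limma 3.58.1 with an intensity trend (R 4.3.3) was run on log2 of the value plus 1 for 17492 genes at 10 or more in at least 3 of the 9 libraries, which shared 1 estimate of spread, with calls at an adjusted p under 0.05. Such fold changes understate those of low genes. Exact permutation tests used SciPy 1.17.1, and the Poisson intervals of single libraries cover counting error only, while limma's intervals rest on the spread between libraries. edgeR 4.0.16 and DESeq2 1.42.0 were alternatives, run on 8 libraries. Scripts were tested on simulated data. The genes and lists were chosen with earlier results of these data known. Besides the 9 genes, the text names the 3 highest of each list, any called, the 3 nearest patterns of each gene (the nearest only for 6 of them), and markers. A gene that this rule names is not reported here. Lengths come from GENCODE 29 on GRCh38. The annotation of the files may differ.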

Additional observations from a re-analysis of the deposited data

How the results depend on the processing

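No call of the 9 genes was gained or lost with pseudocounts of 0.5 or 5, without the filter on low values or with one at a 9-library mean of 50, after upper-quartile or total rescaling, in the 2 groups compared alone, with edgeR or DESeq2, or when any single library was left out. The replicate numbers did not pair the libraries throughout, as deviations of same-numbered libraries correlated at -0.352 to 0.498 over the comparisons. For SKF-96365 against control, the same number correlated above any other number for replicates 1 (0.498 against at most 0.247) and 3 (0.373 against -0.162). Replicate 2 did not (-0.192 against 0.443), nor did any replicate in the other comparisons. With the number as a block 0 of the 9 genes and 0 genes in all were called in each comparison.

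The counts changed when libraries that stood with another group were left out together. Without control 3 and SKF-96365 1 together, 2 of the 9 were called with SKF-96365 against control, 0 with 2-APB against control, 2 with 2-APB against SKF-96365 and 2 by the F test, beside 4823 (27.6%), 0 (0%), 2283 (13.1%) and 3547 (20.3%) of the 17492 genes. STIM2 was then -0.49 and ORAI3 1.59 with SKF-96365 against control, and STIM1 -0.47 and ITPR3 -0.64 with 2-APB against SKF-96365. Without 2-APB 3 as well, an alternative chosen after seeing the data, the members called were 5, 2, 1 and 5, beside 6569 (37.6%), 1735 (9.92%), 2575 (14.7%) and 5857 (33.5%) genes, in the same order. These libraries were left out because of where they lay, so those p-values are optimistic. Control 1, also closest to a library of another group (2-APB 3), was kept in both fits. Leaving out single libraries gave 0 to 173 genes with SKF-96365 against control, the highest without control 3, and 0 to 4 with 2-APB against SKF-96365. DESeq2 called 2 and 1 genes in those comparisons, and the fit of the 2 groups alone called 4 with 2-APB against SKF-96365. The cause was not tested.

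Signs changed for values near 0. With SKF-96365 against control, ITPR1 was -0.013 with upper-quartile rescaling, -0.016 with edgeR and -0.020 with DESeq2, SARAF was -0.0079 with edgeR and -0.012 with DESeq2, and STIM1 was 0.14 without the 2 or the 3 libraries. The edgeR and DESeq2 fits also lacked SKF-96365 3, and limma without that library gave -0.026 for ITPR1 and -0.013 for SARAF. With 2-APB against control, ITPR2 was -0.0065 with upper-quartile rescaling and -0.024 without the 2 libraries, SARAF was 0.026 with total rescaling, 0.11 without the 2 and 0.24 without the 3, and ITPR1 was 0.024 without the 3. With 2-APB against SKF-96365, ORAI1 was -0.0071 with edgeR, -0.0027 with DESeq2 and -0.070 without the 3. With single libraries left out, SKF-96365 against control ran from -0.24 to 0.10 for STIM1, -0.026 to 0.071 for ITPR1, -0.070 to 0.039 for ITPR2 and -0.048 to 0.19 for SARAF. 2-APB against control ran from -0.21 to 0.63 for ORAI3, -0.29 to 0.021 for ITPR1, -0.024 to 0.12 for ITPR2 and -0.13 to 0.11 for SARAF. 2-APB against SKF-96365 ran from -0.14 to 0.15 for ORAI1 and -0.20 to 0.051 for SARAF. The other log2 fold changes of the 9 genes kept their sign under these alternatives. Of the 9 genes, depth limits ORAI3 most, with 30 to 132 reads. Its coefficient of variation of 47.8% was still well above the 11.8% or so expected from reads alone. How reads in its 1397 shared exon bases were counted is not given.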
